A study of Homo sapiens with 12 samples.

Results

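The herbal formula SKHS was compared with astragaloside IV in C28/I2 cells, an immortalised line of human chondrocytes, the cells of cartilage. Every gene with a log2 fold change for both treatments over their shared control was taken, which gave 17927 of the 19215 genes measured. Both treatment groups consisted of 3 cultures and received 50 nM SDF-1α, the chemokine CXCL12. SDF1_SKHS cultures also received SKHS, a formula of traditional Chinese medicine, at 1%, and SDF1_AS4 cultures received astragaloside IV, a triterpene saponin of Astragalus root, at 10 µM. The shared control, SDF1, consisted of 3 cultures with 50 nM SDF-1α alone. The other group, given 0.5% DMSO without the chemokine, was not used in the differences. All cultures were grown in medium with serum and harvested at 48 h for sequencing of total RNA. The design asks whether natural products taken to antagonise CXCR4, the receptor of SDF-1α, inhibit its signalling in these cells.

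The comparison has limits that the labels set. A percentage of a formula and a molar dose of a pure compound are not matched doses, so a difference describes the treatments as given. The labels name a solvent in the DMSO group alone, and a solvent added with a product cannot be told apart from that product. The deposited table held comparisons only, so no value per culture, depth or level can be given, and the line could not be checked against the levels of chondrocyte markers. Nothing in the labels says how separate the 3 cultures of a group were, and the p-values measure only how these cultures of a single line varied.

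ATF4, CHOP (the product of DDIT3) and their partners form the transcriptional arm of the integrated stress response, which cells start when amino acids are short, when proteins misfold in the endoplasmic reticulum, when haem is short or when viral RNA is sensed. Its targets import amino acids, make asparagine and serine, and charge tRNAs. p53 halts the cell cycle, NRF2 directs antioxidant genes, and SREBP factors direct sterol synthesis. In cartilage, chondrocytes lay down type II collagen and aggrecan, and matrix metalloproteinases and chemokines are associated with its breakdown in arthritis.

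For each gene the difference was the log2 fold change of SDF1_SKHS over SDF1 minus that of SDF1_AS4 over SDF1, both from the authors' deposited table, so the SDF1 cultures cancel in it. A positive difference means a higher level with SKHS than with astragaloside IV. A value after ± is the standard error of the difference on the log2 scale, taken as an upper bound. A gene was called higher or lower at an adjusted p under 0.05 in a Wald test with Benjamini-Hochberg adjustment over all 17927 genes. Genes with a standard error of at most 0.3 are called precisely measured.

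Genes of the ATF4 response and of amino acid synthesis were the highest groups with SKHS relative to astragaloside IV, and genes of mitosis, sterol synthesis and DNA replication, with the metallothioneins, were the lowest. In all, 1524 genes were higher (8.5%) and 1865 were lower (10.4%), together 3389 (18.9%). Of the higher genes 201 differed by at least 2-fold, and of the lower genes 471. Among the 10921 precisely measured genes, 3159 were called (28.9%), the median difference was 0.01, and the median size of a called difference was 0.61. The upper bound on the error kept the count down: with 0.5 times the summed variance, which holds if the 3 groups vary alike, 5708 genes were called. When the same Wald statistic was referred to a t distribution (4 degrees of freedom), 0 were called, the smallest adjusted p was 0.0882, and 3017 genes had an unadjusted p under 0.05.

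The largest differences upward, among precisely measured genes, began with GDF15, a secreted stress cytokine (chromosome 19, 18374731 to 18389176, GRCh38), at 4.19 ± 0.29, or 18.2-fold (adjusted p = 2.49e-43). SLC7A5, the large neutral amino acid transporter LAT1 (chromosome 16, 87830023 to 87869488), followed at 3.12 ± 0.16, or 8.7-fold, with the smallest p-value of all genes (adjusted p = 2.13e-82). CHAC1, an enzyme that degrades glutathione, stood at 3.06 ± 0.18, TRIB3, a pseudokinase that restrains ATF4 and AKT, at 2.95 ± 0.16, and SLC7A11, the cystine importer, at 2.75 ± 0.16. ASNS, asparagine synthetase (chromosome 7, 97852118 to 97872542), stood at 2.59 ± 0.13, PSAT1, an enzyme of serine synthesis, at 2.37 ± 0.13, and ATF3, a stress transcription factor, at 2.34 ± 0.29. The list of 10 ended with ALDH1L2, a mitochondrial folate enzyme, at 2.16 ± 0.20 and PTCHD4, a patched-domain protein known as a p53 target, at 2.11 ± 0.22. Of these 10 genes, 9 belonged to the amino acid and ATF4 groups described next. PTCHD4 was in none of them.

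The largest differences downward were those of PIF1, a DNA helicase (chromosome 15, 64815632 to 64825668), at -2.94 ± 0.25, or 7.68-fold lower (adjusted p = 1.98e-30), MXD3, a MAX-binding repressor, at -2.44 ± 0.17, and PCYOX1L at -2.40 ± 0.20. TROAP, a mitotic spindle protein, stood at -2.30 ± 0.15, SPC24, a kinetochore subunit, at -2.26 ± 0.19, and FOS, an immediate early factor, at -2.21 ± 0.22. IDH2, the mitochondrial isocitrate dehydrogenase (chromosome 15, 90083045 to 90102504), stood at -2.10 ± 0.14, C21orf58 at -2.08 ± 0.19, RTEL1, a telomere helicase, at -2.07 ± 0.20, and CDC25C, the phosphatase that activates CDK1, at -1.97 ± 0.20. The smallest p-values downward belonged to PLK1, a mitotic kinase (-1.87 ± 0.10, adjusted p = 2.67e-68), KIF20A, a kinesin of cytokinesis (-1.89 ± 0.11), TMEM158 (-1.89 ± 0.12), MEGF6 (-1.86 ± 0.12) and CDCA8, the borealin subunit of the chromosomal passenger complex (-1.87 ± 0.12).

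**Figure D1:**
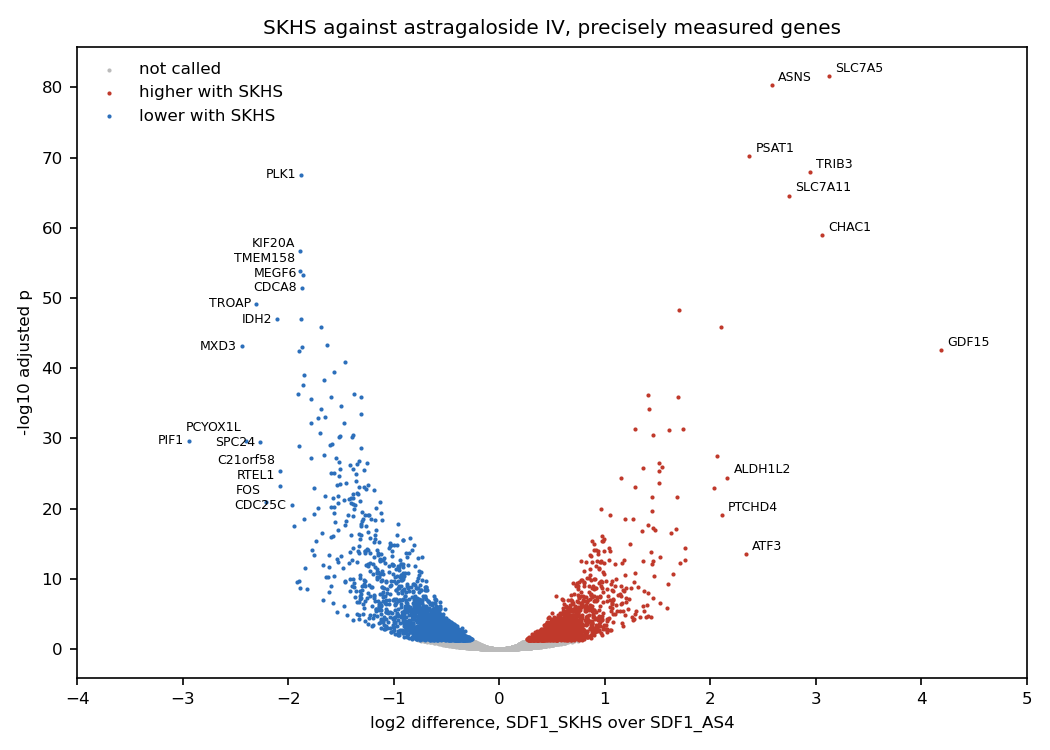
Each point is 1 of the 10921 precisely measured genes, with the log2 difference of SDF1_SKHS over SDF1_AS4 on the x axis and -log10 of the adjusted p on the y axis. Red genes were called higher with SKHS, blue genes lower and grey genes were not called; GDF15 stands alone at 4.19, and PLK1 has the smallest p among lower genes.

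Which product gave a difference was read from the authors' deposited table, in which both products share the SDF1 cultures as control. The median of the ATF4 pathway list was 1.4 for SKHS over SDF1 and -0.05 for astragaloside IV over SDF1 in the authors' deposited table. For the mitosis list the same medians were -1.54 and -0.14, and for sterol synthesis -0.83 and -0.04. In each of these lists the SKHS side lay far from 0 and the astragaloside IV side near it, so the differences there were mostly those of SKHS over SDF1.

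The promoters of ATF4 targets are shown because they carry the letters known for ATF4 binding with C/EBP factors, and because those genes were higher together. The motif TGATGNAA was searched on both strands in RefSeq promoters of GRCh38.p14, from 250 bases before to 50 bases after a start site. It was found for 3.38% of the 13898 measured genes that have such a promoter, counting a gene when any of its listed start sites had a match. Among members of the 4 ATF4 and amino acid lists it was found for 19 of 59 (32.2%), among them 18 of the 39 that were higher and 0 of the 4 that were lower. The members were chosen with earlier results of these data known, so these shares describe the lists and were not tested. Capitals below mark the match, on either strand, in the promoters of ASNS (chr7:97872359-97872658, minus strand), CHAC1 (chr15:40953221-40953520, plus strand) and GARS1, glycyl-tRNA synthetase (chr7:30594628-30594927, plus strand). The match begins 68, 209 and 33 bases before the RefSeq start site of ASNS, CHAC1 and GARS1. In all 6 motifs were searched, each on both strands. TGACNNNGC, known for NRF2, was found for 8 of 25 NRF2 list members with a promoter, among them 3 of the 13 that were higher, and for 18.7% of measured genes. TCACNCCAC, known for sterol control, was found for 1 of 18 sterol list members and 1.55% of measured genes. TGCGCNC or TGCACNC, known for MTF1, was found for 4 of 5 members and 43.0% of measured genes, and GCGTG, known for the aryl hydrocarbon receptor, for 6 of 8 and 53.2%. A match is a description of the letters and not evidence of binding in these cells.
ASNS: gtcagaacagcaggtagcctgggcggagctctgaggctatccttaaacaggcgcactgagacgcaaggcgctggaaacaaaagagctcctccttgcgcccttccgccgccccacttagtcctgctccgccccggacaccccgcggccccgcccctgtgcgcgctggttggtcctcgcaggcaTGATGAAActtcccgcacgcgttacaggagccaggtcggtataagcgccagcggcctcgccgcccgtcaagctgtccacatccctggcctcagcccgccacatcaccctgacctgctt
CHAC1: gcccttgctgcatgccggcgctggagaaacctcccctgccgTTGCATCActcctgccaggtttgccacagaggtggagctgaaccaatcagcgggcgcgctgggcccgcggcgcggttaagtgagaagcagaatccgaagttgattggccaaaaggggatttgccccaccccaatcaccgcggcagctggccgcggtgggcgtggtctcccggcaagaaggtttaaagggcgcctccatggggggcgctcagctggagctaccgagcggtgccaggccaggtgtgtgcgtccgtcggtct
GARS1: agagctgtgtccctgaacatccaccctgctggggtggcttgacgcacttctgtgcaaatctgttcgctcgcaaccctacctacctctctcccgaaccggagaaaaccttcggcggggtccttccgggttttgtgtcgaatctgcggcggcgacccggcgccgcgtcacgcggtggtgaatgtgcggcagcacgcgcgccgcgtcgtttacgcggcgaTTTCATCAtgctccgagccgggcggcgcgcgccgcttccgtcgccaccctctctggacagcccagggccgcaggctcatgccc

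Of 21 measured ATF4 pathway factors and effectors, 20 were higher, none was lower, and the median difference was 1.45, against -0.02 over all genes tested. The exception was the factor ATF5, at -0.07 with a 95% interval from -0.35 to 0.21. Among the factors, ATF4 itself stood at 0.93 ± 0.12, DDIT3 at 1.11 ± 0.20, CEBPG, a C/EBP partner of ATF4, at 1.45 ± 0.14, and JDP2, a bZIP repressor, at 1.45 ± 0.15. NUPR1, a stress-induced chromatin protein, stood at 1.74 ± 0.14 (adjusted p = 4.53e-32). SESN2 and DDIT4, which restrain the growth kinase mTORC1, stood at 2.10 ± 0.14 and 2.06 ± 0.18. PPP1R15A, the phosphatase subunit that reverses the response, stood at 0.55 ± 0.12. The 19 precisely measured members left out only ADM2 and INHBE.

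The highest members of this group, GDF15 and ADM2, encode secreted proteins. ADM2, the peptide intermedin, stood at 3.90 ± 0.40 (adjusted p = 2.48e-20), next to GDF15 in size but less precisely measured. INHBE, an activin subunit, stood at 2.01 ± 0.45, VEGFA, the angiogenic growth factor, at 1.61 ± 0.13, and STC2, stanniocalcin 2, at 0.78 ± 0.10. The authors' deposited table gave GDF15 at 3.97 for SKHS over SDF1 and -0.22 for astragaloside IV over SDF1. In that deposited table of the authors, ADM2 stood at 4.07 and 0.17, and VEGFA at 1.4 and -0.21. FGF21, another secreted target of ATF4, had no value for astragaloside IV over SDF1, and the authors' deposited table listed it at 4.23 for SKHS over SDF1 (q = 0.0426).

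Of 18 amino acid transporters, 8 were higher and 1 was lower, with a median of 0.34. After SLC7A5 and SLC7A11 came SLC38A1, a glutamine importer, at 1.77 ± 0.21, and SLC3A2, the heavy chain shared by both exchangers, at 0.99 ± 0.13. SLC1A4 and SLC1A5, carriers of small neutral amino acids, stood at 0.96 ± 0.12 and 0.74 ± 0.11, SLC7A1, a cationic carrier, at 0.50 ± 0.11, and SLC7A2 at 0.82 ± 0.30 (adjusted p = 0.0389, and 0.0986 with length and GC trends removed). SLC36A4 was lower, at -0.57 ± 0.20. The authors' deposited table listed SLC7A11 at 2.37 for SKHS over SDF1 and -0.38 for astragaloside IV over SDF1, so its difference was larger than either value.

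Among 19 enzymes of asparagine, serine, proline and folate metabolism, 11 were higher and 4 were lower, with a median of 0.97. All the enzymes of the serine branch were higher: PHGDH at 0.97 ± 0.14, PSAT1 as given above and PSPH at 1.41 ± 0.15. Mitochondrial folate enzymes were higher, with MTHFD2 at 1.69 ± 0.13 (adjusted p = 1.34e-36), MTHFD1L at 1.26, SHMT2 at 0.86 ± 0.11 and ALDH1L2. Their cytosolic counterparts were lower, with SHMT1 at -0.98 ± 0.15 and MTHFD1 at -0.37 ± 0.12. GPT2, which makes alanine, stood at 1.68 ± 0.16 and CBS, which starts transsulfuration, at 1.52 ± 0.14, although CBS has a near-identical copy and how reads were shared is not known here. In proline synthesis ALDH18A1 and PYCR3 were lower, at -0.59 ± 0.12 and -0.59 ± 0.19, and PYCR1 stood at 0.26 with a 95% interval from 0.02 to 0.51 (adjusted p = 0.143). With length and GC trends removed, PYCR3 was not called (adjusted p = 0.189) and PYCR1 was called higher (adjusted p = 0.00169).

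Of 20 cytosolic tRNA synthetases, 12 were higher and 1 was lower, with a median of 0.72. GARS1 stood at 1.41 ± 0.11 (adjusted p = 7.1e-37), WARS1, for tryptophan, at 1.29 ± 0.11, MARS1, for methionine, at 1.16 ± 0.11, YARS1, for tyrosine, at 1.05 ± 0.11, and TARS1, for threonine, at 0.88 ± 0.10. The lower gene was VARS1, for valine, at -0.69 ± 0.13. The synthetases for glutamine and arginine were not called, with QARS1 at -0.10 (95% interval -0.31 to 0.11) and RARS1 at 0.02 (-0.20 to 0.24). XPOT, which exports tRNA from the nucleus, stood at 0.58 ± 0.12.

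**Figure D2:**
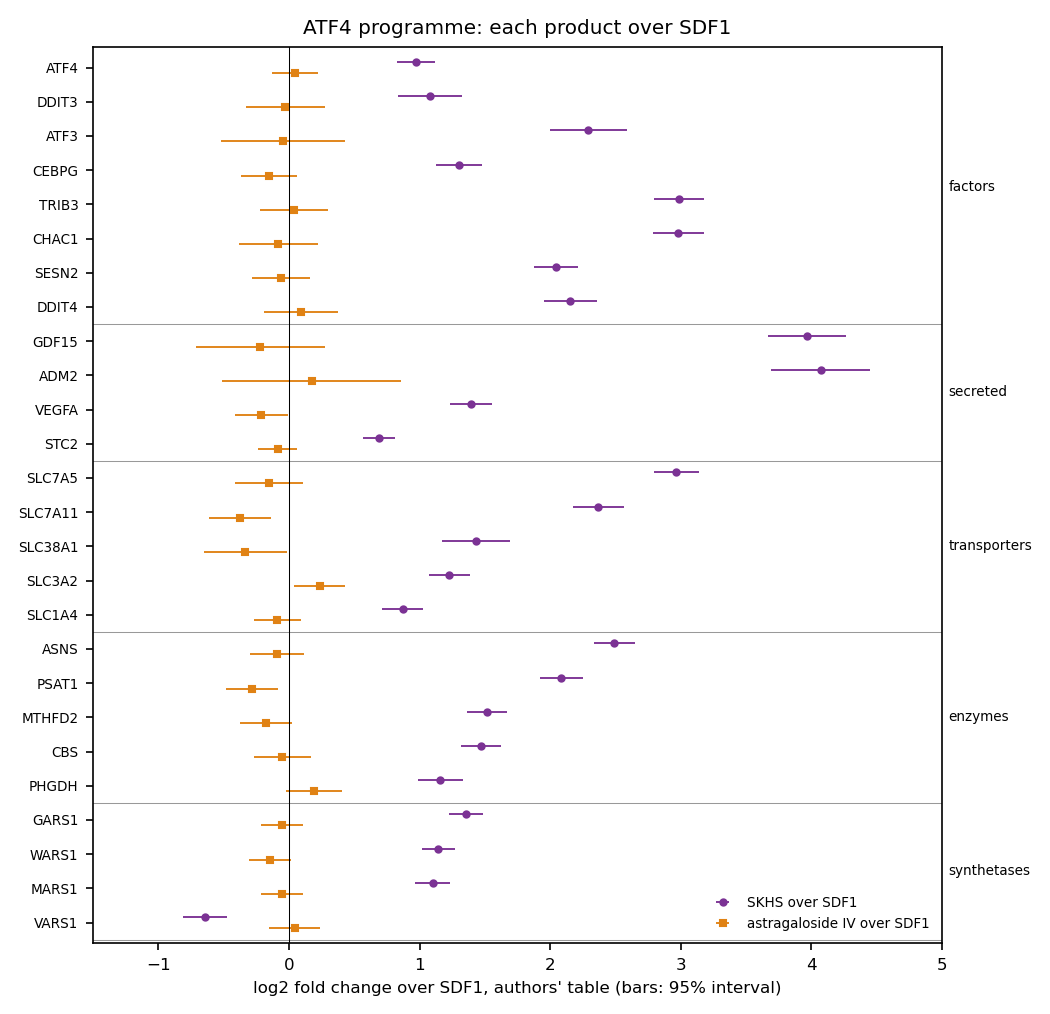
Each row is a gene of the ATF4 and amino acid groups, with the log2 fold change over SDF1 in the authors' deposited table for SKHS (purple circles) and astragaloside IV (orange squares) and 95% intervals from the implied standard errors. The SKHS values lie from 0.69 for STC2 to 4.07 for ADM2, except VARS1 at -0.65, and the astragaloside IV values lie between -0.38 and 0.24.

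The chaperones of the endoplasmic reticulum did not follow the ATF4 genes. Of 24 members of the list of chaperones and degradation factors, 3 were higher and 11 were lower, with a median of -0.28. That was 58.3% of the list, against 18.9% of all genes and 28.9% of precisely measured genes. MANF, a secreted stress factor, stood at -1.10 ± 0.14 (adjusted p = 2.25e-13), CALR, calreticulin, at -0.51 ± 0.11, PDIA4, a disulfide isomerase, at -0.39 ± 0.10, and HSP90B1, the chaperone GRP94, at -0.34. HSPA5, the chaperone BiP, stood at -0.06, with a 95% interval from -0.28 to 0.16. HERPUD1, a degradation factor, at 0.95 ± 0.13, the sensor kinase ERN1 at 0.99 ± 0.30 and the transcription factor XBP1 at 0.65 ± 0.12 were the higher ones. Of 19 cytosolic and mitochondrial heat shock chaperones, 3 were higher and 7 lower (52.6%), with a median of -0.16. HSPA1A and HSPA1B, near-identical copies of inducible HSP70, stood at -1.39 ± 0.11 and -1.42 ± 0.13. They count as 1 observation, although both are among the 7 lower. The co-chaperone CHORDC1 stood at -1.16 ± 0.16, the constitutive HSPA8 at -0.53 ± 0.11, and mitochondrial HSPA9 at 0.45 ± 0.10.

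Of 34 genes in the list of NRF2 and its antioxidant targets, 17 were higher and 0 were lower, with a median of 0.51. NFE2L2, which encodes NRF2, stood at 0.81 ± 0.12. SRXN1, sulfiredoxin, stood at 1.42 ± 0.11 (adjusted p = 5.47e-35), OSGIN1 at 1.44 ± 0.19, TXNRD1, thioredoxin reductase, at 0.97 ± 0.11, NQO1, a quinone reductase, at 0.93 ± 0.11, and GCLC and GCLM, the subunits of the enzyme that starts glutathione synthesis, at 1.2 ± 0.18 and 0.60 ± 0.14. SLC7A11 belongs to this list as well. HMOX1, the haem-degrading enzyme, stood at 0.27 (95% interval -0.02 to 0.56, adjusted p = 0.219, and 0.0233 with length and GC trends removed), and the ferritin chain FTH1 at 0.16 (-0.08 to 0.39). The authors' deposited table gave HMOX1 at 0.63 for SKHS over SDF1 and 0.36 for astragaloside IV over SDF1. The AKR1C genes of this list are near-identical copies, and their counts are uncertain.

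Metallothioneins, small proteins that bind zinc and copper, were lower with SKHS where they were called. MT1X stood at -1.91 ± 0.14 (adjusted p = 4.54e-37), MT2A at -1.46 ± 0.21 and MT1G at -2.82 ± 0.75. The products lay on opposite sides of SDF1 in the authors' deposited table, with MT1X at -1.5 for SKHS and 0.41 for astragaloside IV, and MT2A at -0.98 and 0.49. The q of the astragaloside IV value was 0.0518 for MT1X and 0.0286 for MT2A in the authors' deposited table. Of the 8 measured members of the list, which also holds zinc carriers, 3 were lower and 1 was higher, the zinc importer SLC39A10 at 0.66 ± 0.24 (adjusted p = 0.0329, and 0.0923 with length and GC trends removed). MT genes resemble each other closely, and how reads were shared between them is not known here. Of 9 genes of the aryl hydrocarbon receptor pathway, NQO1 was higher and CYP1A1, a target oxidase, was lower at -0.82 ± 0.22, while the receptor gene AHR stood at 0.59 (0.10 to 1.07, adjusted p = 0.0826), and 22.2% of that list was called against 18.9% of all genes.

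Of 26 p53 targets, 19 were higher and 0 were lower, with a median of 0.80. CDKN1A, the cell cycle inhibitor p21, stood at 1.71 ± 0.11 (adjusted p = 5.63e-49), and MDM2, the ligase that degrades p53, at 1.37 ± 0.12. RRM2B, a p53-controlled ribonucleotide reductase subunit, stood at 1.44 ± 0.18, BTG2, an antiproliferative factor, at 1.52 ± 0.19, and BBC3, the apoptosis inducer PUMA, at 1.46 ± 0.24. The death receptors TNFRSF10B and FAS stood at 1.04 ± 0.12 and 0.55 ± 0.15. CCNG1, cyclin G1, stood at 0.24 (95% interval -0.00 to 0.48). SESN2, counted here and in the ATF4 list, is known to respond to both factors.

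All 40 measured genes of G2/M and mitosis were lower, with differences from -1.97 to -0.69 and a median of -1.39, or 2.61-fold. Among kinases, AURKB stood at -1.78 and CDK1 at -1.24, with PLK1 given above. CDC20, the activator of the anaphase ligase, stood at -1.69 ± 0.11 (adjusted p = 1.5e-46), KIF2C, a microtubule-depolymerising kinesin, at -1.88 ± 0.13, TPX2, a spindle assembly factor, at -1.47 ± 0.10, CCNB1, cyclin B1, at -1.56, and MKI67, the proliferation antigen Ki-67, at -1.65. The smallest difference in the list was that of BUB3, a checkpoint protein, at -0.69. The authors' deposited table listed PLK1 at -1.75 for SKHS over SDF1 and 0.12 for astragaloside IV over SDF1.

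Promoters of mitotic genes are shown because they hold the cell cycle homology region, the letters through which the DREAM and MuvB complexes are known to act on such genes. The motif TTTGAA, added after the values were seen, was searched in the same windows on both strands. It was found for 24 of the 34 list members with a promoter (70.6%) and for 15.1% of measured genes. Capitals mark it in the promoters of PLK1 (chr16:23678639-23678938, plus strand) and CCNB2, cyclin B2 (chr15:59104896-59105195, plus strand), where it begins 29 bases before the RefSeq start site in both.
PLK1: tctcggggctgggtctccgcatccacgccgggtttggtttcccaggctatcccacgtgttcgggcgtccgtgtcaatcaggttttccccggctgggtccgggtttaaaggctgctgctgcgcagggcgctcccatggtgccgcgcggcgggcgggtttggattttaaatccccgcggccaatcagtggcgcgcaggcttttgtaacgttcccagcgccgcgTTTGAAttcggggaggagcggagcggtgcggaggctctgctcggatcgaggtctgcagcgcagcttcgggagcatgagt
CCNB2: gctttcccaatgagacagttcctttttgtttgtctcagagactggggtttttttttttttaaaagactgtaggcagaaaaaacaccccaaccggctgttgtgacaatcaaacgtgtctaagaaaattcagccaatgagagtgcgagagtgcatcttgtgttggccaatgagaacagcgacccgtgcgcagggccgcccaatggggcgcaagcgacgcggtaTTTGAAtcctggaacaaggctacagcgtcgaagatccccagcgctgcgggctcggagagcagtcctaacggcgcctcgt

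Of 43 genes of DNA replication and G1/S, 37 were lower and 0 were higher, with a median of -0.69. LIG1, which joins Okazaki fragments, stood at -1.78 ± 0.14 (adjusted p = 6.2e-33), and RRM2, the ribonucleotide reductase subunit of S phase, at -1.47 ± 0.12. POLA2, a subunit of DNA polymerase alpha, stood at -1.39 ± 0.14, FEN1, the flap nuclease, at -1.33 ± 0.13, and MCM7, a subunit of the replicative helicase, at -0.96 ± 0.11. PCNA, the polymerase clamp, was among the least lowered at -0.39 ± 0.10. CCNE1 and CCNE2, the E cyclins, were apart: CCNE1 stood at 0.42 (0.06 to 0.78, adjusted p = 0.0971, and 0.0444 with length and GC trends removed) and CCNE2 at -0.99 ± 0.30. CCNE2 was below SDF1 with both products in the authors' deposited table, at -1.84 with SKHS and -0.86 with astragaloside IV. Since a group is a whole culture, fewer cycling cells and less RNA per cell cannot be told apart in these or other counts.

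Of 25 genes of cholesterol synthesis and uptake, 22 were lower and 0 were higher, and all 25 differences lay below 0, with a median of -0.76. INSIG1, the sterol sensor, stood at -1.31 ± 0.10 (adjusted p = 2.92e-34), HMGCS1, an early enzyme of the pathway, at -1.18 ± 0.13, DHCR7, which ends it, at -1.13 ± 0.11, and MVD at -1.27 ± 0.15. SREBF2, the pathway's main regulator, stood at -0.62 ± 0.11. Of 15 genes of fatty acid synthesis, 14 of them precisely measured, 5 were lower and 0 were higher, with a median of -0.26. That was 33.3% of the list, against 88% of the sterol list, 18.9% of all genes and 28.9% of precisely measured genes. FASN stood at -1.03 ± 0.12, SCD at -0.77 ± 0.10 and ELOVL5 at -0.88 ± 0.16. SREBF1, their regulator, stood at -1.22 ± 0.13. The authors' deposited table placed SREBF1 at -0.81 for SKHS over SDF1 and 0.40 for astragaloside IV over SDF1 (q = 0.0256), on opposite sides of 0. Its transcript has a GC content of 64.7%. In the highest of 10 GC bins the median astragaloside IV value over SDF1 was 0.20, and the source of that trend was not tested. With length and GC trends removed, the difference of SREBF1 was -1.02.

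Glycolysis and hypoxia genes did not move as a single group. Of 22 genes of glycolysis and lactate handling, 13 were lower and 0 were higher, with a median of -0.37. That share of 59.1% compares with 18.9% of all genes and 28.9% of precisely measured genes. ALDOC stood at -1.41 ± 0.14 (adjusted p = 3.5e-22), ENO2 at -0.92 ± 0.12, LDHA, which makes lactate, at -0.81 ± 0.09, PFKL at -0.80 ± 0.14, and PGK1 at -0.73 ± 0.09. Of 22 HIF factors and hypoxia targets, 7 were higher and 5 were lower (54.5%), with a median of 0.04. Lower members were CA9, a carbonic anhydrase, at -1.62 ± 0.21, P4HA1, a collagen prolyl hydroxylase, at -1.0 ± 0.14, LOX, a collagen crosslinker, at -0.87 ± 0.13, PDK1, a brake on pyruvate oxidation, at -0.86 ± 0.17, and P4HA2. The higher members included VEGFA and DDIT4, which the ATF4 list also holds, and the HIF subunits HIF1A at 0.69 ± 0.23 and EPAS1 at 0.64 ± 0.12.

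CXCR4, the receptor that SDF-1α signals through (chromosome 2, 136114349 to 136118165), was lower with SKHS than with astragaloside IV by 1.43 ± 0.47 on the log2 scale, or 2.69-fold, with a 95% interval of the difference from -2.34 to -0.52 (adjusted p = 0.0154). The authors' deposited table gave it at -1.64 for SKHS over SDF1 and -0.21 for astragaloside IV over SDF1. ACKR3, the scavenger receptor of the same chemokine, was higher, at 0.77 ± 0.14 (adjusted p = 4.54e-07). CXCL12 itself was measured too imprecisely for a statement, at -0.16 ± 2.21. Of 30 genes of the chemokine, its receptors and signalling partners, 2 were higher and 5 were lower (23.3%, against 18.9% of all genes), with a median of 0.09. Of these 30 genes 25 were precisely measured, and among all precisely measured genes 28.9% were called. RGS4, which switches off G proteins, stood at -0.70 ± 0.11, the kinase gene AKT1 at -0.47 ± 0.10, and the G protein subunit GNAI2 at -0.39 ± 0.12 (adjusted p = 0.00617, and 0.18 with length and GC trends removed).

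Of 25 inflammatory chemokines and cytokines, 4 were lower and 1 was higher, a share of 20% that is near the 18.9% of all genes. CXCL8, the neutrophil chemokine, stood at -1.32 ± 0.18 (adjusted p = 2.62e-11), CCL2, the monocyte chemokine, at -1.33 ± 0.16, CSF2, the growth factor GM-CSF, at -1.94 ± 0.51, and IL11 at -0.60 ± 0.19. CSF1, a macrophage growth factor, was higher at 0.36 ± 0.11. These were the 5 called, and 7 of the list were precisely measured. IL6 stood at 0.48 ± 0.87, with an interval from -1.22 to 2.18 that leaves differences of more than 2-fold in either direction possible. Of 17 NF-kB subunits and feedback genes, NFKB2 (-0.64 ± 0.15) and NFKBIA (-0.43 ± 0.12) were lower and TNFAIP3, the deubiquitinase A20, was higher (0.62 ± 0.16), a share of 17.6% that is below that of all genes.

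Among 38 proteases that degrade cartilage, with their inhibitors, 6 were lower and 1 was higher, a share of 18.4% that is near the 18.9% of all genes. MMP13, the collagenase most linked to cartilage loss (chromosome 11, 102942995 to 102955734), stood at -1.19 ± 0.25 (adjusted p = 3.86e-05). MMP3, stromelysin 1, stood at -0.89 ± 0.11 (adjusted p = 2.43e-14) and MMP1, an interstitial collagenase, at -0.48 ± 0.18 (adjusted p = 0.0474). The higher gene was ADAMTS6, at 1.21 ± 0.21. ADAMTS5, an aggrecanase, had a standard error of 4.22 and ADAMTS4 one of 3.03, so neither could be compared. The authors' deposited table gave MMP13 at -1.07 for SKHS over SDF1 and 0.12 for astragaloside IV over SDF1, and MMP3 at -0.75 and 0.14. TIMP1, an inhibitor of these proteases, stood at 0.11 (95% interval -0.16 to 0.37).

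Of 27 matrix genes typical of fibroblasts and of dedifferentiated chondrocytes, 7 were lower and 0 were higher, with a median of -0.12. That share of 25.9% compares with 18.9% of all genes and 28.9% of precisely measured genes, and 22 of the 27 were precisely measured. COL1A1 and COL1A2, the chains of type I collagen, stood at -0.73 ± 0.10 and -0.85 ± 0.10, COL5A1 at -0.83 ± 0.10, and COL7A1, the anchoring fibril collagen, at -0.92 ± 0.13. For the matricellular genes THBS1 and TNC no difference between the products was called, at 0.17 (-0.10 to 0.43) and -0.20 (-0.48 to 0.08). Both lay below SDF1 with each product in the authors' deposited table, THBS1 at -0.33 and -0.49 and TNC at -0.65 and -0.45 for SKHS and astragaloside IV. A low value with both products can come from the shared SDF1 cultures alone.

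Cartilage genes were mostly measured imprecisely, with 3 of 17 at a standard error of at most 0.3, and 3 were lower (17.6%, against 18.9% of all genes called). SOX9, the master factor of chondrocytes, stood at -0.40 ± 0.14 (adjusted p = 0.0294), MATN2, a matrilin, at -0.48 ± 0.11, and COL11A2 at -1.21 ± 0.36. ACAN, the core protein of aggrecan, stood at -0.11 (95% interval -0.53 to 0.32, adjusted p = 0.9), and COL2A1 at -1.48 ± 2.91, which allows no statement. COL11A1 stood at -0.79 (-1.56 to -0.01, adjusted p = 0.177). Of 11 markers of hypertrophic chondrocytes and osteoblasts, 1 was lower (9.09%, against 18.9% of all genes), the bone factor DLX5 at -0.74 ± 0.16. RUNX2 stood at 0.31 (0.02 to 0.60, adjusted p = 0.136). Of 14 markers of endothelial, blood, muscle and fat cells, 0 were called by the Wald test at an adjusted p under 0.05, 1 was precisely measured, and VWF had the smallest p, at -0.90 (-1.66 to -0.14).

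**Figure D3:**
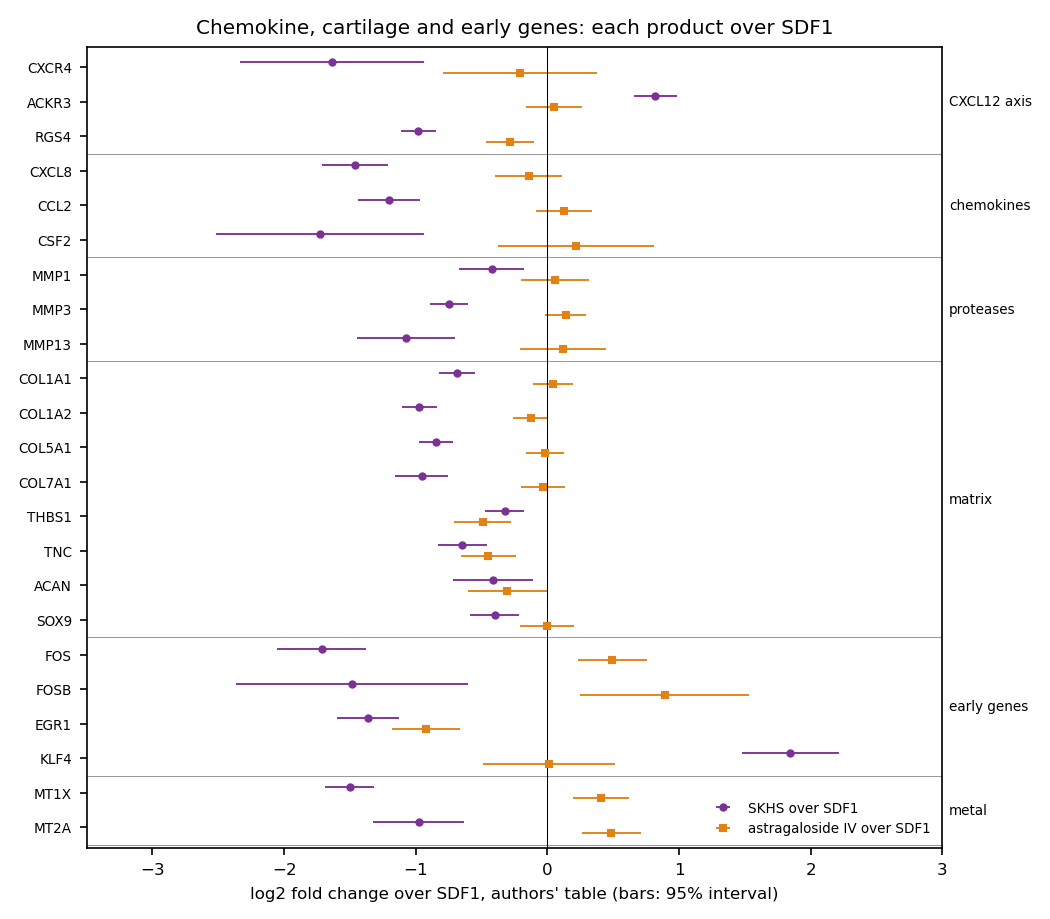
Each row is a gene of the chemokine, cartilage, early response or metal groups, with the log2 fold change over SDF1 in the authors' deposited table for SKHS (purple circles) and astragaloside IV (orange squares) and 95% intervals. FOS and MT1X lie on opposite sides of 0 for the products, and EGR1, THBS1 and TNC lie below 0 for both.

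Immediate early genes split. FOS (chromosome 14, 75278774 to 75282230) and FOSB, subunits of AP-1, were lower at -2.21 ± 0.22 and -2.37 ± 0.56, JUN at -0.46 ± 0.10 and MYC at -0.49 ± 0.13. ATF3 and KLF4, a zinc finger factor, were higher, KLF4 at 1.83 ± 0.32. In all 5 of 23 were higher and 6 were lower (47.8%, against 18.9% of all genes and 28.9% of precisely measured genes). The authors' deposited table gave FOS at -1.71 for SKHS over SDF1 and 0.49 for astragaloside IV over SDF1 (q = 0.0518). EGR1 was not called, at -0.44 (-0.79 to -0.09, adjusted p = 0.0676), and the authors' deposited table had it at -1.36 with SKHS and -0.92 with astragaloside IV. Of 19 genes in the list of feedback inhibitors of ERK signalling, 6 were higher, among them the phosphatases DUSP7 (0.89 ± 0.13) and DUSP5 (0.97 ± 0.15). ETV5 (0.73 ± 0.18), a transcription factor and not an inhibitor, was counted with them. The 2 lower genes were DUSP10 (-0.43 ± 0.12) and DUSP1 (-0.33 ± 0.11, adjusted p = 0.0268, and 0.192 with length and GC trends removed). The share called in this list of 19 was 42.1%.

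Of 20 YAP and TEAD targets, 10 were higher and 1 was lower, with a median of 0.32. That share of 55% compares with 18.9% of all genes and 28.9% of precisely measured genes. With length and GC trends removed the counts were 7 and 0. AJUBA, a LIM-domain regulator, stood at 0.97 ± 0.11 (adjusted p = 7.43e-17), F3, tissue factor, at 0.96 ± 0.16, ANKRD1 at 0.70 ± 0.10, and GADD45B at 0.69 ± 0.12. The usual reporters CCN1 and CCN2 were not called, at -0.26 (-0.47 to -0.05) and 0.01 (-0.25 to 0.26). The median of this list in the authors' deposited table was 0.09 for SKHS over SDF1 and -0.16 for astragaloside IV over SDF1, so here the astragaloside IV side lay farther from 0.

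Of 23 TGF-beta and BMP response genes, 9 were higher and 3 were lower (52.2%, against 18.9% of all genes and 28.9% of precisely measured genes). The inhibitory SMAD6 stood at 1.29 ± 0.12 (adjusted p = 8.98e-24), PMEPA1, another feedback inhibitor, at 1.05 ± 0.13, the receptor TGFBR2 at 1.19 ± 0.16, and INHBA, an activin subunit, at 0.87 ± 0.12. TGFBI, a secreted matrix protein, was lower at -0.86 ± 0.13. Of 18 contractile genes 2 were higher and 3 lower, with TPM1 at 0.54 ± 0.09 and TPM2 at -0.71 ± 0.16. This share of 27.8% compares with 18.9% of all genes and 28.9% of precisely measured genes. Among 29 Wnt receptors and regulators 1 was higher and 3 were lower (13.8%, against 18.9% of all genes), among them the receptor FZD7 at -0.44 ± 0.14. Of 13 glucocorticoid targets, 3 were higher and 4 were lower (53.8%). TSC22D3, the factor GILZ, stood at 1.23 ± 0.21 and ERRFI1 at 0.92 ± 0.14, while MT1X and MT2A of this list were lower.

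Of 17 circadian clock genes, 7 were higher and 0 were lower (41.2%, against 18.9% of all genes and 28.9% of precisely measured genes). They included both arms of the loop, the activators ARNTL (0.95 ± 0.21) and CLOCK (0.53 ± 0.15) and the repressors NR1D1 (0.84 ± 0.14), NR1D2 (0.90 ± 0.15) and PER2 (0.86 ± 0.28). Of 45 interferon-stimulated genes, 6 were higher and 1 was lower, a share of 15.6% that is below the 18.9% of all genes, with ISG15 at 0.46 ± 0.14, UBE2L6 at 0.50 ± 0.13 and PARP12 at -1.07 ± 0.16. Of 15 genes of MHC class I presentation, TAP1, the peptide transporter (0.65 ± 0.13), and NLRC5 (0.46 ± 0.15) were higher. That was 13.3% of this list, below the 18.9% of all genes.

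Ribosomal proteins differed little between the products. Of 74 cytosolic ribosomal proteins, 1 was higher, RPL4 at 0.42 ± 0.10, and 0 were lower, with a median of 0.07. Both products had medians above SDF1 in the authors' deposited table, 0.28 for SKHS and 0.21 for astragaloside IV. Of 69 nuclear-encoded respiratory subunits, 8 were lower, among them SDHA of complex II at -0.47 ± 0.10, and 1 was higher, with a median of -0.08. Of 34 proteasome subunits, 8 were lower and 1 was higher, with PSMD14 at -0.82 ± 0.12. Of 23 SR proteins, CLK kinases and cyclin L genes, 7 were lower, with CLK3 at -0.96 ± 0.15, CCNL2 at -0.78 ± 0.11 and SRSF2 at -0.59 ± 0.10. Of 22 autophagy genes 5 were higher, among them the receptors SQSTM1 (0.60 ± 0.10) and NBR1 (0.57 ± 0.13). The shares called were 22.7% for autophagy, 23.1% for lysosomal and 13% for respiratory genes, against 18.9% of all genes. They were 26.5% for proteasome subunits and 30.4% for the SR protein, CLK and cyclin L list. Most members of these lists were precisely measured, and among all precisely measured genes the share called was 28.9%. Of 26 lysosomal genes 5 were lower and 1 was higher, the regulator TFEB at 0.89 ± 0.24. With length and GC trends removed, the lysosomal counts were 2 and 2, the respiratory counts 5 lower and 1 higher, and the ribosomal counts 7 higher and 0 lower.

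**Figure D4:**
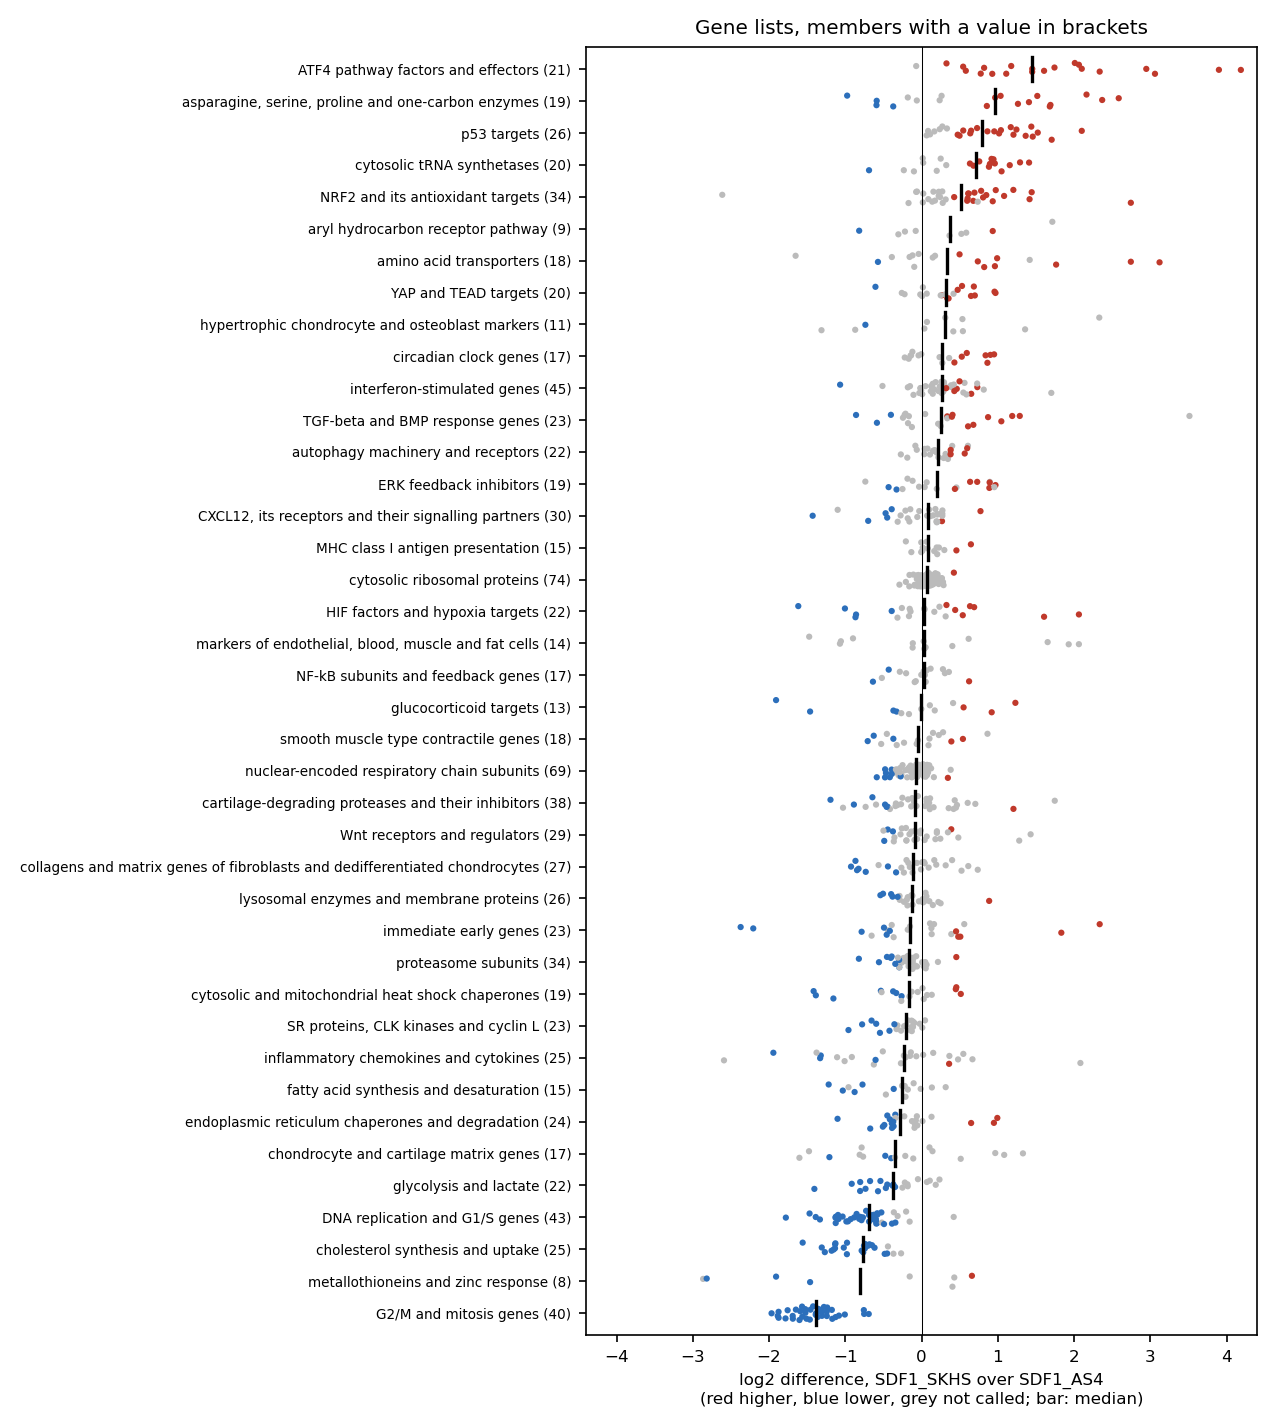
Each row is a gene list, each point a member's log2 difference of SDF1_SKHS over SDF1_AS4, with the black bar at the list's median and the number of members with a value in brackets. Red points were called higher, blue points lower and grey points were not called; the ATF4 list lies at the top with a median of 1.45 and the mitosis list at the bottom with -1.39.

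The difference followed the length and GC content of transcripts. Genes called higher had a median GC content of 46.0% and a median length of 4163 nucleotides in their longest coding transcript, and genes called lower 54.5% and 2990 nucleotides. Over 10893 genes measured precisely (genes are not independent replicates), Spearman's rho of the difference was -0.246 with GC content and 0.169 with length. For the astragaloside IV values in the authors' deposited table rho was 0.605 with GC content and -0.548 with length, and for the SKHS values 0.0466 and -0.114. In 10 equal bins of GC content the median difference fell from 0.15 at a GC content of 37.2% to -0.20 at 64.1%, while the median for SKHS over SDF1 stayed between -0.03 and 0.04. The points share the same libraries, and the source of the trend was not tested. With both trends removed, 3152 of 17540 annotated genes were called, and 2739 of the calls (80.8%) were kept with the same sign. The ATF4 factors, sterol and mitosis lists kept their counts of 20 higher, 22 lower and 40 lower, with medians of 1.42, -0.79 and -1.44.

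**Figure D5:**
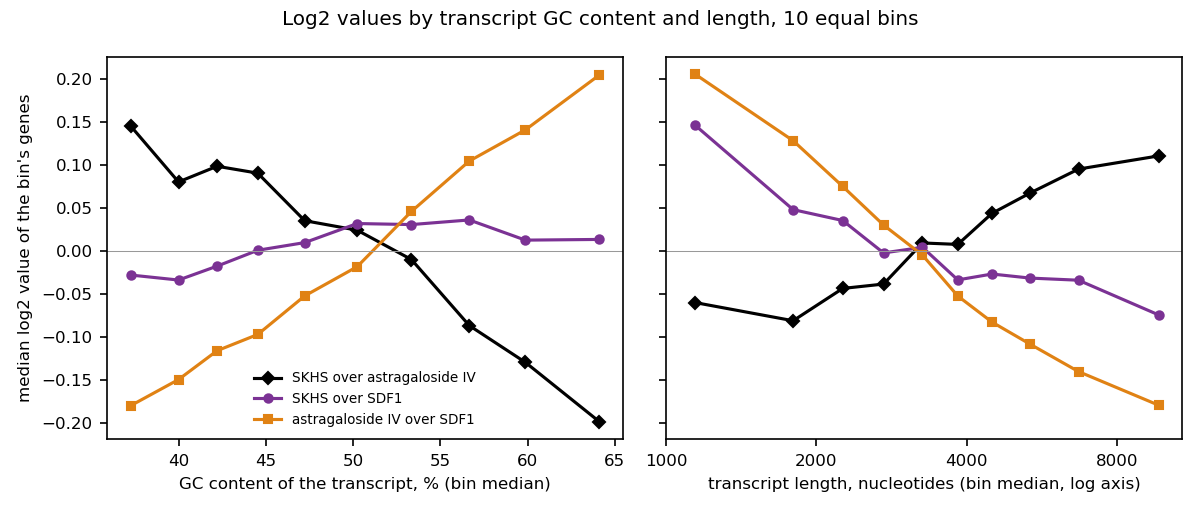
Precisely measured genes were split into 10 equal bins of transcript GC content (left) and length on a log axis (right), and each point is the median log2 value of a bin. The astragaloside IV line climbs with GC content from -0.18 to 0.20, and the SKHS line in that panel is nearly flat, so the difference (black) falls from 0.15 to -0.20.

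Some genes could not be compared because the deposited table lacked a value for 1 product. Of these, 324 had a value for SKHS alone and 206 for astragaloside IV alone, and 758 had neither. Past the authors' q of 0.05 were 3 of the first kind and 0 of the second. In the authors' deposited table these were P2RY11, a nucleotide receptor, at 8.85, SMIM34A at 4.86 and FGF21. The same table of the authors gave P2RY11 at -8.59 for SDF1 over the DMSO group, so its SKHS value is a rise over a lowered control. Every one of the 324 and 206 single values was positive, and the direction of the comparisons was read from that sign, so it is not a separate result.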

How the data were processed

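RNA of C28/I2 cultures was sequenced, and the only deposited file used holds the authors' own comparisons. Per the file headers 3 comparisons are given, each with the log2 fold change, p-value and q-value of a gene, with DESeq2 named as the source of the tests. The submitters' processing notes list Bowtie2 2.2.5, RSEM 1.2.12, DESeq2 1.4.5 and GRCh38.p13 and give no order of steps. Whether the log2 values were shrunk is not given in the sources used here. Groups were matched to the headers through the sample titles, and the group named second in a header was read as the numerator, since all 324 and 206 genes with a value for only SKHS or only astragaloside IV were positive. The deposited q-value equals a Benjamini-Hochberg adjustment of the deposited p-value. No value per sample was given, so depth, intervals from counts and checks of samples were not possible.

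An implied standard error was computed by dividing the size of the deposited log2 fold change by the normal quantile that its p-value gives. The difference of both products' log2 values was divided by the square root of the sum of both squared errors (Wald test, normal distribution), which counts the SDF1 spread although it cancels. P-values were adjusted by Benjamini-Hochberg over 17927 genes and called under 0.05. The median standard error was 0.208 (quartiles 0.145 and 0.772, highest 5.77). The steps were tested on simulated data. Lists are described by counts and medians and were not tested. Transcript lengths and GC content came from GENCODE 29 (GRCh38), in which 17540 of the genes (97.8%) were found; trends were fitted with splines of 5 degrees of freedom for each. Promoters came from RefSeq (GRCh38.p14). Python 3.11.15, numpy 2.4.6, scipy 1.17.1, pandas 2.3.3, patsy 1.0.2, statsmodels 0.14.6 and matplotlib 3.10.9 were used.

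The genes named were the 10 largest precisely measured differences each way, the 5 smallest p-values each way, a panel of chemokine and cartilage genes, and in each list up to 5 members with the smallest p-values and further members by role. The members, lists, panel and tests were chosen with earlier results of these data known. Alternatives were the error, the reference distribution, the genes tested, centring, sequence trends and the threshold; a fold requirement was added after seeing the data. Values of a few genes counted within the lists and families are not reported here.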

Additional observations from a re-analysis of the deposited data

How the results depend on the processing

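The count of called genes moved by more than 1.5 times under some alternatives. With 0.5 times the summed variance 5708 genes were called, 2735 higher and 2973 lower. When a t distribution (4 degrees of freedom) replaced the normal one, 0 were called by the Wald statistic, 0 higher and 0 lower, with 3017 at an unadjusted p under 0.05, and heavier tails can by construction only lower the count. At an adjusted p under 0.01, 2315 genes were called, 978 higher and 1337 lower. That total stayed within 1.5 times of the 3389 given, and only its higher count moved by more. With a 2-fold difference required as well, a choice made after seeing the data, 672 were called, 201 higher and 471 lower. Restricting the test to a standard error of at most 0.5 (3651) or to a value in all 3 deposited comparisons (3396), centring (3393) and removing the length and GC trends (3152) kept the counts within 1.5 times of the 3389 given. Single genes were recomputed for the 213 that the naming rule took by size, p-value or panel, and among these none changed sign in a called value. Of the 213, 12 lost their call and 4 gained one with the trends removed, 18 gained one with 0.5 times the summed variance, and 183 lost it with the t distribution.

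No paired analysis was possible because the deposited table holds no value per sample, although the labels number the cultures of each group. Leaving out a replicate was not run for the same reason. Depth limits are unknown, and 10921 of 17927 genes had a standard error of at most 0.3.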

Other observations

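Gene families taken by the start of their symbols, chosen after the values were seen and not tested as groups, add to the picture of the cell division genes. Of 21 centromere and kinetochore proteins of the CENP family, 17 were lower and 0 were higher with SKHS than with astragaloside IV, with a median of -1.01, led by CENPI at -1.90 ± 0.16 and CENPF at -1.69 ± 0.13. Of 14 condensin and cohesin subunits, which shape and hold chromosomes, 11 were lower, with NCAPG at -1.54 ± 0.13 and SMC4 at -1.15 ± 0.16. Of 10 Fanconi anaemia genes, which repair DNA crosslinks, 7 were lower, with FANCI at -1.30 ± 0.14 and FANCA at -1.12 ± 0.14. Kinesins were mixed: among 40, 14 were lower and 6 were higher, with a median of -0.05, 22 differences below 0 and 18 above. Of 20 tubulins, 10 were lower and 0 were higher, with the neuronal type TUBB3 at -1.35 ± 0.12, TUBB4B at -1.17 ± 0.12 and TUBA1B at -0.97 ± 0.11. Alpha tubulin genes are close copies, so their separate values are uncertain. The shares called were 81% for the CENP family, 78.6% for condensin and cohesin subunits and 70% for Fanconi anaemia genes. They were 50% for kinesins and 50% for tubulins, against 18.9% of all genes and 28.9% of precisely measured genes.

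Among 52 histone genes, 7 were precisely measured, 5 were higher and 1 was lower. H2AC6 stood at 1.71 ± 0.22, while the linker histone H1-10 stood at -0.88 ± 0.14. Of 21 BCL2 family genes, 5 were higher, with the inducers of apoptosis HRK at 1.15 ± 0.20 and PMAIP1 at 0.65 ± 0.16 and the protective BCL2L1 at 0.42 ± 0.11, and 1 was lower, BCL2L12 at -0.83 ± 0.16. Of 54 translation initiation factors, 12 were higher and 3 were lower. EIF2S2, a subunit of the initiation factor that the integrated stress response acts on, stood at 0.87 ± 0.11, and EIF4A2, a helicase, at -1.01 ± 0.13. Of 17 mitochondrial tRNA synthetases, 3 were lower and 1 was higher, with AARS2 at -0.79 ± 0.16 and CARS2 at 0.52 ± 0.12. Of 526 zinc finger genes of the ZFP and ZNF series, 49 were higher and 21 were lower, with a median of 0.09. The shares called were 11.5% for histones and 13.3% for zinc finger genes, both below the 18.9% of all genes. They were 28.6% for the BCL2 family, 27.8% for initiation factors and 23.5% for mitochondrial tRNA synthetases, against 28.9% of precisely measured genes. Among 26 integrins, 12 laminins, 78 mitochondrial ribosomal proteins and 48 keratins, 5 (19.2%), 2 (16.7%), 6 (7.69%) and 2 (4.17%) genes were called, against 18.9% of all genes.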
